A study of Bos taurus with 34 samples.

Results

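A set of 10 liver genes that act in the metabolism of choline, sarcosine, glycine, threonine and folate-bound carbon units was followed in cattle. These were cattle with and without the SLICK allele of the prolactin receptor gene PRLR. The set is CHDH, BHMT, DMGDH, SARDH, GNMT, PEMT, GLDC, AMT, GCAT and SHMT1, which make up 10 of the 14161 genes in the authors' deposited comparison of SLICK with FREE liver. The genes were chosen by pathway and selected on values of that same comparison, where DMGDH led the genes higher in SLICK by its p. Differences between the genotypes are therefore given as a description and support nothing by themselves. All 10 were found by symbol in the comparison and by Ensembl identifier in both raw count tables.

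The series holds 34 liver samples, all labelled Senepol, in 2 experiments. In the experiment with TruSeq Stranded mRNA libraries, 10 daughters carried 1 copy of the allele (SLICK) and 8 carried 0 copies (FREE). The SLICK daughters came from the bulls Blanco (5) and Lone Ranger (5), and the FREE daughters from Blanco (1) and Lone Ranger (7). Both bulls are described as slick, so every daughter had a slick sire, and genotype and sire are partly confounded. The experiment with SMARTer libraries has 5 samples of genotype S1, with 1 copy, and 11 of genotype S2, with 2 copies. Ages are not given in the labels used here. Library columns carry animal numbers that could not be tied to a sample, so no value per animal is given, S2 against S1 is not analysed here, and every value below is one of the authors' comparison or computed from it. The sign is read from the name of that comparison, as SLICK over FREE. PRLR itself stood at -0.05 log2 units (adjusted p = 0.936) in the authors' deposited table.

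Choline that the liver does not build into phospholipid is oxidised in mitochondria to betaine, which gives a methyl group to homocysteine and becomes dimethylglycine. A pair of related mitochondrial flavoenzymes, DMGDH and SARDH, then take the remaining methyl groups off, by way of sarcosine, and leave glycine. The methyl groups are passed to tetrahydrofolate, and the electrons go to the electron transfer flavoprotein. Glycine is itself split by the mitochondrial glycine cleavage system, which again loads folate with a carbon unit, or is exchanged with serine. Liver is a main site of this chemistry in mammals.

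Of the 10 genes, 8 were positive (higher in SLICK) on the log2 scale of the authors' deposited table and 2, GNMT and CHDH, were negative. The median was 0.40, against -0.01 over all 14161 genes. With the threshold on the adjusted p in the authors' deposited table set at 0.05, 2 of the 10 rose (DMGDH and GCAT) and 0 fell, where 0.0918% of all genes rose and 0.501% changed in either direction. At an unadjusted p under 0.05, 7 were higher and 1 was lower, beside 7.22% and 8.79% of all genes. Because the choice of genes used this contrast, nothing is read from these counts. Genes of high level were more often positive. All but GNMT averaged at least 5.90 log2 CPM (read counts scaled to library size), and of the 2088 genes at or above that level 68.2% were higher in SLICK, with a median of 0.07, and 20.6% were higher with an unadjusted p under 0.05.

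**Figure D1:**
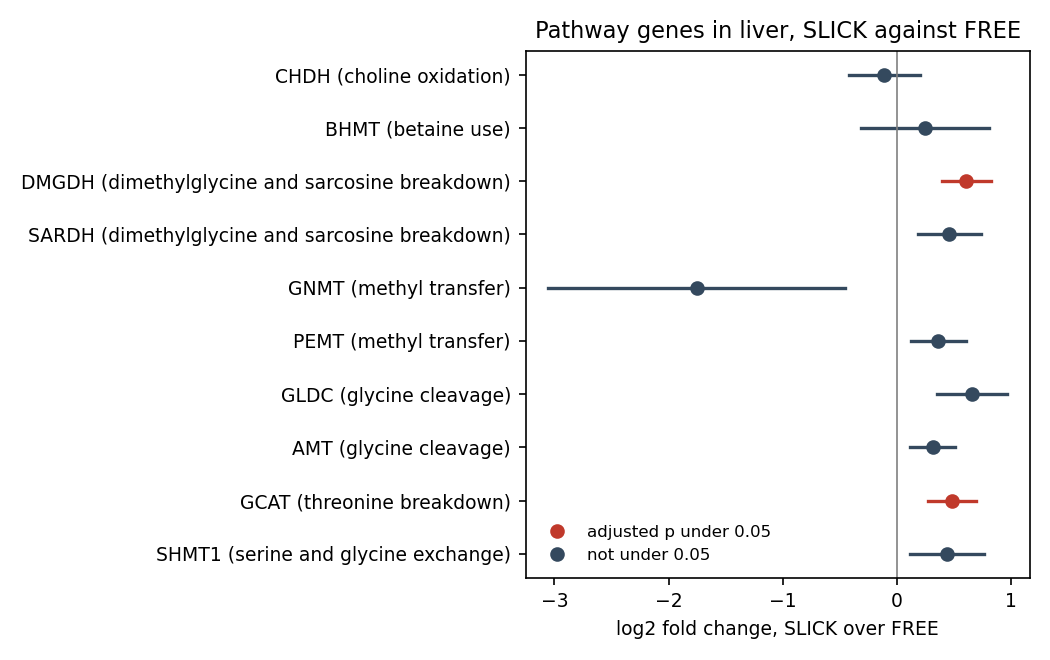
Log2 fold change of SLICK over FREE (x axis) for each of the 10 genes, with the step of the pathway in brackets; points are the authors' deposited values and bars the approximate 95% intervals that the authors' F values imply. DMGDH and GCAT, in red, have an adjusted p under 0.05; the bars of CHDH and BHMT cross 0, and that of GNMT is the widest.

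Choline enters the oxidative route through CHDH, choline dehydrogenase of the inner mitochondrial membrane. For CHDH the authors' deposited table gives -0.11 as the log2 fold change, with adjusted p = 0.798. The F value of that table implies an approximate 95% interval of -0.42 to 0.20. In ARS-UCD1.2 coordinates, used throughout, CHDH spans 47133914 to 47158681 of chromosome 22 on the + strand. The next step is betaine aldehyde oxidation by ALDH7A1, for which the authors' deposited table gives 0.09 (adjusted p = 0.754). BHMT, the cytosolic enzyme that moves a methyl group from betaine to homocysteine, stood at 0.24 in the authors' deposited table, with an adjusted p of 0.738. Its approximate interval ran from -0.32 to 0.81 and was the widest of the 9 members above 0 log2 CPM. That interval includes the value of DMGDH, so a difference between BHMT and DMGDH was not shown, and it could not be tested without library values.

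DMGDH, dimethylglycine dehydrogenase, rose 1.52-fold, a log2 fold change that the authors' deposited table gives as 0.61. For this gene the authors' deposited table holds an F of 36.1, a p of 9.45e-06 and an adjusted p of 0.0210. That p was the sixth smallest of the 14161 genes. The approximate interval was 0.40 to 0.82. SARDH, sarcosine dehydrogenase, takes the product of DMGDH and is built on the same plan. In the authors' deposited table SARDH had 0.46 (1.37-fold), p = 0.00263 and adjusted p = 0.0997. The approximate interval of SARDH, 0.18 to 0.73, overlaps that of DMGDH over most of its length. SARDH lies on chromosome 11 from 104521668 to 104582043 on the - strand.

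DMGDH and SARDH hand their electrons to the electron transfer flavoprotein, made of ETFA and ETFB, and from there to its dehydrogenase ETFDH. These 3 genes stood at 0.09, 0.34 and 0.36 in the authors' deposited table, all positive and 0 past the adjusted threshold, with adjusted p of 0.748, 0.0761 and 0.224. PIPOX, a peroxisomal oxidase that can also use sarcosine, had 0.18 with adjusted p = 0.746 in the authors' deposited table. ETFA and PIPOX, like ALDH7A1 above, were named for their reactions after their values were seen.

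None of the tested genes beside DMGDH passed the adjusted threshold. DMGDH lies on chromosome 10 from 10026069 to 10142758 on the - strand (ENSBTAG00000002110), with 18 separate exon blocks in the deposited annotation. BHMT2, which uses S-methylmethionine in place of betaine, begins 920 bases beyond the 5′ end of DMGDH on the other strand, from 10143679 to 10158404, where BHMT follows from 10191139 to 10214743. The value of BHMT2 was -0.11 in the authors' deposited table (adjusted p = 0.896), with an approximate interval of -0.64 to 0.43, whose upper end overlaps the interval of DMGDH. BHMT and BHMT2 are close paralogs, so reads shared between the copies may make both values uncertain, which was not tested. On the other side of DMGDH, the lysosomal sulfatase gene ARSB had -0.22 (adjusted p = 0.374) and LHFPL2 had -0.60 (adjusted p = 0.118) in the authors' deposited table. Of the 11 other tested genes that start within 1 Mb of DMGDH, 10 were negative and BHMT was positive in the authors' deposited table. Of them, 0 passed the adjusted threshold and 1 (LHFPL2) had an unadjusted p under 0.05. Within 500 kb of DMGDH, 5 of 6 were negative. Among all 14161 tested genes, 7339 were negative. The differences between DMGDH and its neighbours were not tested.

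**Figure D2:**
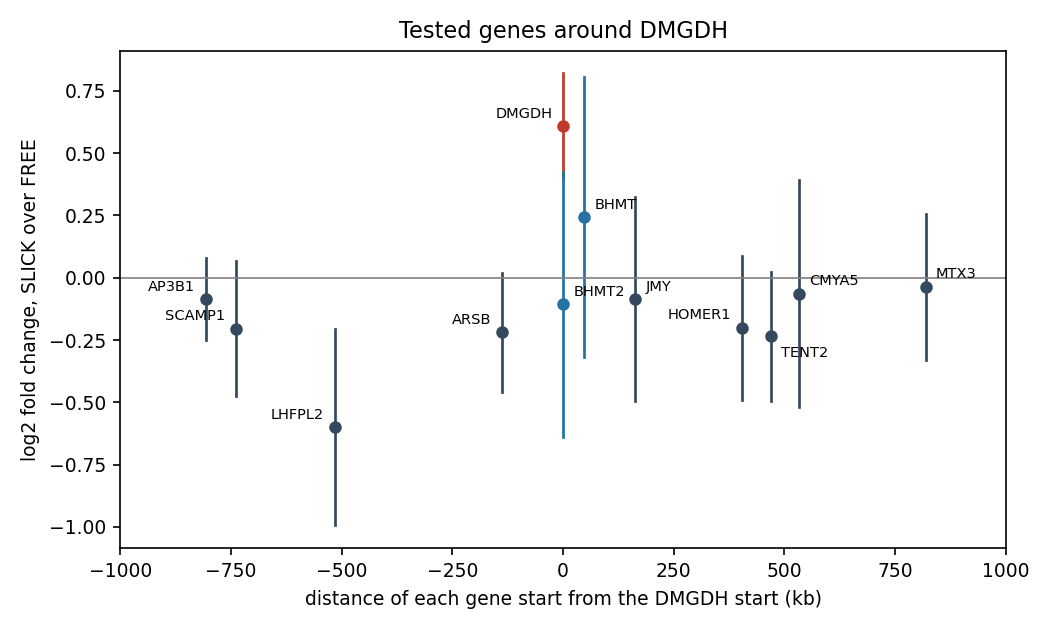
Log2 fold change of SLICK over FREE (y axis) for DMGDH and the 11 other tested genes around it, placed by the distance of each 5′ end from that of DMGDH in kb (x axis); bars are approximate 95% intervals. DMGDH (red) stands at 0.61 and BHMT2 (blue), whose 5′ end is the nearest, at -0.11; BHMT, also in blue, has the longest bar.

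GNMT, glycine N-methyltransferase, makes sarcosine from glycine with the methyl group of S-adenosylmethionine and is an abundant liver enzyme in rodents. In these bovine livers it averaged -0.90 log2 CPM in the authors' deposited table, and only 10.1% of the tested genes lay below it. GNMT did not pass: the authors' deposited table gives a log2 fold change of -1.75, p = 0.0108 and adjusted p = 0.169. That value is a 3.37-fold lower level in SLICK. The approximate interval was wide, from -3.05 to -0.46. The deposited gene model on chromosome 23 (16571910 to 16575153, + strand) counts 888 bases of exon, the shortest of the 10, and the sources used here do not say whether untranslated regions are in it.

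PEMT turns phosphatidylethanolamine into phosphatidylcholine with 3 methyl groups of S-adenosylmethionine and so feeds choline back into the route. It stood at 0.36 (1.29-fold) in the authors' deposited table, with p = 0.00548 and an adjusted p of 0.125. Its approximate interval was 0.12 to 0.61. PEMT lies on chromosome 19 from 34780764 to 34816442, 431 kb from the end of SHMT1. Of the enzymes around both methyltransferases, 9 of 12 measured genes of the methionine cycle list were positive in the authors' deposited table, with a median of 0.14. In that list 0 genes rose and 0 fell on the adjusted p that the authors' deposited table gives, and 2 were higher and 1 lower at an unadjusted p under 0.05. Of all genes 7.22% were higher and 8.79% lower at that p, and 68.2% of genes at or above the CHDH level were positive. GAMT, which methylates guanidinoacetate to creatine, had 0.47 (adjusted p = 0.0945) and AHCY, which clears S-adenosylhomocysteine, had 0.41 (adjusted p = 0.110) in the authors' deposited table. MTR, the methionine synthase that remethylates homocysteine from folate and is the alternative to BHMT, had -0.32 (adjusted p = 0.237), and AMD1 of polyamine synthesis 0.18 (adjusted p = 0.407), in the authors' deposited table.

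The glycine cleavage system has 4 proteins, and all 4 of their genes were positive in the authors' deposited table. Of all genes 48.2% were positive, and of genes at or above the CHDH level 68.2%. GLDC and AMT were chosen with this contrast in view, so nothing is read from the count. GLDC, the decarboxylase that opens the reaction, had the largest value of the 10 genes, 0.66 (1.58-fold) in the authors' deposited table. The authors' deposited table gives p = 2.74e-04 and adjusted p = 0.0511 for GLDC, just outside the threshold that GCAT passed at 0.0486. The approximate interval of GLDC was 0.35 to 0.96. AMT, the aminomethyltransferase that passes the carbon unit to folate, had 0.31 (1.24-fold) in the authors' deposited table, with p = 0.00328 and an adjusted p of 0.108. Its approximate interval, 0.12 to 0.51, was the narrowest of the 10. GCSH, the lipoyl carrier protein, had 0.44 (adjusted p = 0.125) and DLD, the dehydrogenase shared with the pyruvate and 2-oxoglutarate complexes, had 0.13 (adjusted p = 0.606) in the authors' deposited table. DLD was named for its reaction after its value was seen. GLDC lies on chromosome 8 from 38219989 to 38308310 with 25 exon blocks, and AMT on chromosome 22 from 50693259 to 50697601 with 9, both on the + strand.

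Threonine reaches glycine in mitochondria through threonine dehydrogenase (TDH) and then GCAT, which splits the intermediate with coenzyme A. GCAT rose by 0.48 (1.40-fold) in the authors' deposited table, with p = 1.47e-04 and an adjusted p of 0.0486, a value it shares with 40 other genes. Its approximate interval was 0.27 to 0.70. TDH, named for its reaction after its value was seen, stood at -0.01 in the authors' deposited table (adjusted p = 0.992). Its approximate interval, -0.65 to 0.62, includes the value of GCAT, and the difference between both steps was not tested. GCAT lies on chromosome 5 from 109621889 to 109634246 on the + strand. The annotated gene GALR3 on the same strand shares 344 bases of its exons, 11.3% of the exon length of GCAT. Reads in the shared bases can be lost or assigned to either gene, and their part in the value of GCAT was not tested. No other member shares exon bases with another annotated gene.

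SHMT1, the cytosolic serine hydroxymethyltransferase, interconverts serine and glycine. It stood at 0.44 (1.36-fold) in the authors' deposited table, with p = 0.0107 and an adjusted p of 0.168, and its approximate interval was 0.11 to 0.77. Its mitochondrial counterpart SHMT2, named after its value was seen, had 0.05 (adjusted p = 0.861) in the authors' deposited table. The approximate interval of SHMT2, -0.15 to 0.25, overlaps that of SHMT1, and the difference between both genes was not tested. SHMT1 lies on chromosome 19 from 34334364 to 34350038 on the + strand.

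Levels between genes were compared as average log2 CPM less the log2 of the exon length in kb. On this scale of levels BHMT (7.99) and SHMT1 (7.97) stood highest, PEMT followed at 6.46 and GCAT at 5.95. GLDC (5.37) stood above AMT (4.98), its partner in glycine cleavage. DMGDH (4.38), SARDH (4.21) and CHDH (4.21) formed a close group at the lower end, and GNMT at -0.73 was the lowest. The spread of these levels over animals is not known here, so neighbours in this order cannot be said to differ. The 2 genes with the highest levels, BHMT and SHMT1, had the widest approximate intervals of the 9 genes above 0 log2 CPM. Other tested genes reach these levels too, as 80.6% of all genes lay below CHDH per kb and 98.0% below BHMT.

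**Figure D3:**
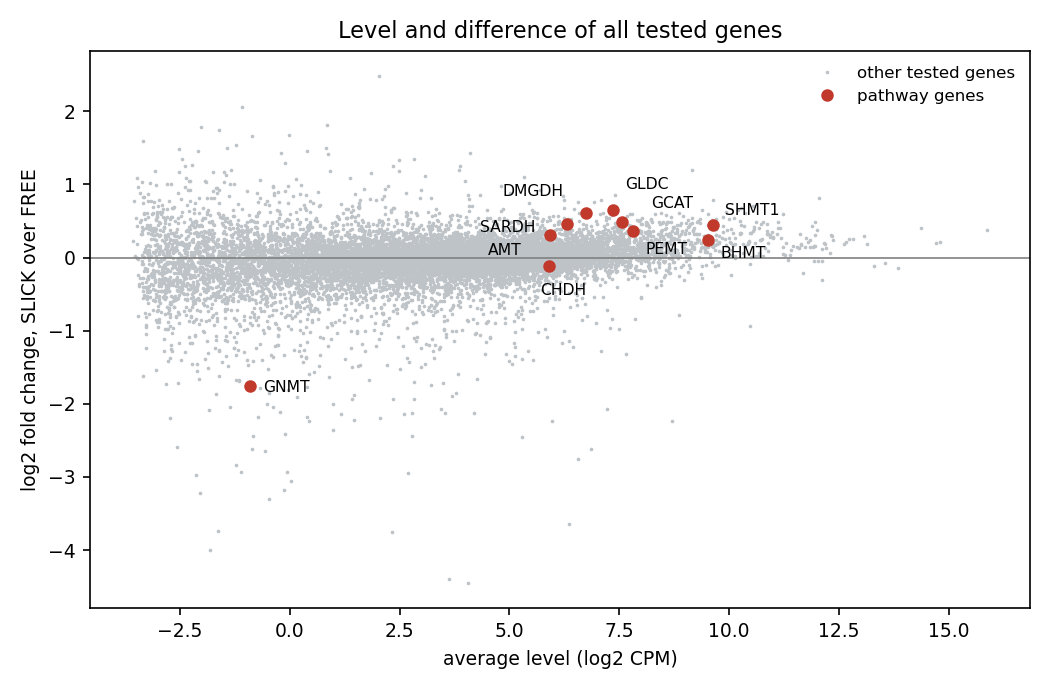
Average level in log2 CPM (x axis) against log2 fold change of SLICK over FREE (y axis) for all 14161 tested genes in grey and the 10 pathway genes in red. All but 1 of the 10 lie at 5.90 log2 CPM or above, where the cloud of grey points leans upward, and GNMT lies apart at -0.90 on the level axis.

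A further 100 genes of the surrounding pathways were measured, in lists chosen with earlier results of these data known. Of these, 0 rose and 0 fell on the adjusted p given in the authors' deposited table. The authors' deposited table held 23 higher and 10 lower genes at an unadjusted p under 0.05, 72.0% were positive, and the median was 0.09. Over all genes 7.22% were higher and 8.79% lower at that p, and 48.2% were positive. Among the 2088 genes at or above the CHDH level, 20.6% were higher at that p and 68.2% were positive, shares close to those of the 100 genes. Lower at that p were 120 of the 2088 genes, a smaller share than the 10 of the 100 genes. The 100 genes had a lower median level, 5.69 against 6.91 log2 CPM, so both sets are not matched for level. The medians of all 6 lists lay between 0.06 and 0.14, beside -0.01 for all genes and 0.07 for genes at or above the CHDH level.

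Genes of choline uptake and phosphatidylcholine synthesis had 14 of 16 positive values in the authors' deposited table, a median of 0.08 and, at an unadjusted p under 0.05, 4 higher and 1 lower. The choline transporter-like gene SLC44A3 had 0.59 (adjusted p = 0.117) and ETNK2, an ethanolamine kinase, 0.35 (adjusted p = 0.152) in the authors' deposited table. CHPT1, which makes phosphatidylcholine from CDP-choline, had 0.31 (adjusted p = 0.214) and PISD, which makes phosphatidylethanolamine in mitochondria, -0.17 (adjusted p = 0.164) in the authors' deposited table. Among the 9 neighbours of the betaine route, 6 were positive in the authors' deposited table, with a median of 0.09 and, at an unadjusted p under 0.05, 3 higher and 1 lower. ALDH9A1, an aldehyde dehydrogenase, had 0.45 and the amino acid carrier SLC6A20 had -1.43 in the authors' deposited table, and both had adjusted p = 0.0930. SLC6A20 averaged -1.55 log2 CPM. These lists hold ETFB and ETFDH, given above with DMGDH.

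In the folate list, 17 of 25 genes were positive in the authors' deposited table, with a median of 0.06 and, at an unadjusted p under 0.05, 5 higher and 3 lower. The lower genes included SLC19A1, the reduced folate carrier, with -0.69 (adjusted p = 0.0520), and MTHFD2, a mitochondrial folate dehydrogenase, with -0.39 (adjusted p = 0.117), in the authors' deposited table. The higher ones included UROC1 with 0.45 (adjusted p = 0.125) and FTCD with 0.43 (adjusted p = 0.161), enzymes of histidine breakdown, in the authors' deposited table. Among 25 genes of serine and glycine metabolism, 16 were positive in the authors' deposited table, with a median of 0.09 and, at an unadjusted p under 0.05, 7 higher and 2 lower. GRHPR, a glyoxylate reductase, had 0.58 (adjusted p = 0.0876) and GLYCTK, the glycerate kinase, 0.46 (adjusted p = 0.112) in the authors' deposited table. SLC25A38, the mitochondrial glycine carrier, had 0.31, with adjusted p = 0.0911, in the authors' deposited table. Genes of transsulfuration and cysteine breakdown had 10 of 13 positive values in the authors' deposited table, with a median of 0.09, and 2 higher and 2 lower at an unadjusted p under 0.05. In that list the sulfurtransferase TST had 0.37 (adjusted p = 0.143), ETHE1 had 0.20 (adjusted p = 0.247), SQOR had -0.20 (adjusted p = 0.188) and GCLC of glutathione synthesis -0.43 (adjusted p = 0.322), as given in the authors' deposited table.

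**Figure D4:**
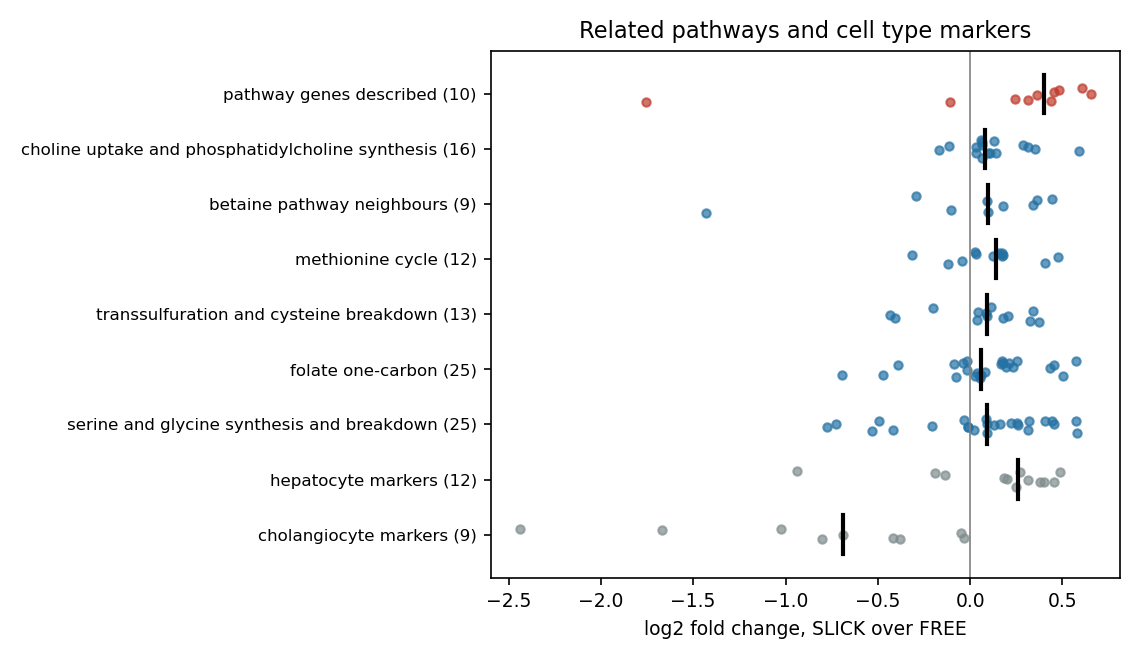
Log2 fold change of SLICK over FREE (x axis) for the 10 pathway genes (red), the 6 lists of related genes (blue) and the markers of hepatocytes and bile duct cells (grey), with the number measured in brackets and the median as a black bar. The 10 genes have a median of 0.40, the related lists of 0.06 to 0.14, the hepatocyte markers of 0.26 and the bile duct markers of -0.69.

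Markers of liver cell types are given beside these genes. The labelled tissue was checked on hepatocytes, the cells that hold this pathway, whose markers averaged 8.09 to 15.87 log2 CPM in the authors' deposited table. Of 12 hepatocyte markers 9 were positive, with a median of 0.26, and 4 were higher at an unadjusted p under 0.05. Of all genes 7.22% were higher at that p. Among genes at or above the CHDH level, 68.2% were positive and 20.6% were higher at that p, so nothing is read from these counts. Albumin (ALB) had 0.38 and transferrin (TF) 0.40 in the authors' deposited table; the adjusted p were 0.290 and 0.161. The 3 negative markers, HP, APOA1 and FGB, had -0.94, -0.19 and -0.14 in the authors' deposited table; the adjusted p were 0.684, 0.718 and 0.650. All 9 measured cholangiocyte markers were negative, with a median of -0.69, and 6 were lower at an unadjusted p under 0.05, where 8.79% of all genes were lower at that p and 48.2% were positive. CLDN4 had -1.67 and KRT7 -1.03 in the authors' deposited table; the adjusted p were 0.0599 and 0.0658. By position in the lobule, 7 of 9 periportal markers were positive (median 0.51) and 6 of 10 pericentral markers (median 0.21) in the authors' deposited table. The largest value of both lists was that of pericentral CYP2E1, 0.81 (adjusted p = 0.0847), in the authors' deposited table. Median levels were 8.72 log2 CPM for periportal and 6.01 for pericentral markers, and the difference between both lists was not tested. The remaining lists were those of macrophages (10 genes, median 0.13), stellate cells and fibroblasts (10, -0.10), endothelium (10, 0.12), T and NK cells (9, 0.08), B and plasma cells (8, -0.05) and neutrophils (5, -0.40). Of all markers 1 passed the adjusted threshold in the authors' deposited table, BLNK of B cells, which fell by 0.77. In bulk tissue, fewer cells of a type and less RNA per cell cannot be told apart, and the part of cell composition in the values of the pathway genes was not tested. As with every value here, the difference between SLICK and FREE daughters and the difference between sires cannot be told apart fully.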

How the data were processed

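Liver RNA was sequenced from TruSeq or SMARTer libraries, per the labels' protocols. HISAT2 2.1.0, edgeR, Subread and featureCounts appear, without roles, in the submitters' processing notes, as does the ARS-UCD1.2 assembly. For the SMARTer counts, featureCounts 1.6.2 with Ensembl release 100 models, a minimum mapping quality of 10 and reverse-stranded counting were used, per the file headers. The sources used here do not give strand use for the TruSeq counts.

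For each gene the authors deposited a p-value with its adjusted form, the F score behind it, and the log2 fold change and average log2 CPM, per the file headers. The sources used here do not state their model terms. Of 14246 deposited rows, 85 repeat a gene, and 14161 were kept. Across 4 tables, 70 library columns are headed by animal numbers found in no label, and none was used. The comparison and the TruSeq counts each name 18 animals, 17 of them shared, so whether the comparison covers exactly the labelled samples is not known. Depth per sample is therefore not given, and the spread between animals enters only through the authors' F and p. Nothing in the labels says more of the daughters' independence than their sires.

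The planned count fits (SLICK against FREE with sire, S2 against S1, and within Lone Ranger daughters) could not be made, and the deposited values took their place. An approximate standard error was the size of the log2 fold change divided by the square root of F. The 95% intervals used the 18.7 denominator degrees of freedom that F and p imply, as the median over 500 genes examined. This is an approximation, since the deposited F need not be the square of such a ratio. Adjusted p are the authors', which differ by up to 0.0141 from Benjamini-Hochberg over the genes kept. Gene lengths, another deposited value, and coordinates came from the annotation columns (27607 genes). Intervals and adjustment were tested on simulated data, where F was by construction the square of the log2 fold change over its standard error. That test therefore could not show whether the approximation holds for the deposited F.

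Members and lists were chosen with earlier results of these data known. The genes named were the 10 members, up to 4 genes with the smallest p per related list, the 2 tested genes nearest DMGDH on either side, those past the threshold, and PRLR. Other genes, named for their reactions or as cell type markers, were chosen after their values were seen. Planned sequence comparisons of promoters and proteins were not run, and no sequences are shown. All 10 symbols are in the RefSeq table of ARS-UCD2.0, which was used for names only. Python 3.11.15, numpy 2.4.6, pandas 2.3.3, scipy 1.17.1 and matplotlib 3.10.9 were used.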

Additional observations from a re-analysis of the deposited data

How the results depend on the processing

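The number of the 10 genes past the threshold followed the threshold: it was 2 as deposited, 4 at an adjusted p of 0.10, 0 at 0.01 and 8 at an unadjusted p under 0.05. With Benjamini-Hochberg recomputed over the 14161 genes it was 3, since GLDC then passed, and 90 genes passed in place of 71. That adjustment also took the folate list from 0 to 1 gene past the threshold. The median of the 10 genes stayed positive under the 5 alternatives, between 0.33 and 0.44; the alternative relative to genes of at least the CHDH level was chosen after seeing the data. Centring moved each related list by 0.01. The neighbours of DMGDH with a negative value were 10 of 11 within 1 Mb and 5 of 6 within 500 kb. Without the length term, 5 of 10 level ranks were the same. No paired analysis was possible because the library columns carry no sample or replicate number. For the same reason the other forms of the count fits (DESeq2, no filter on low counts, each replicate left out, sire and replicate terms) were not run, and whether 1 animal carries a difference is not known.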

Other observations

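Several short routes inside the related lists had values of 1 sign; these routes and the genes named in both paragraphs were chosen after their values were seen, share the comparison that chose the members, and carry no test. The 4 enzymes that break histidine down and pass its carbon unit to folate, HAL, UROC1, AMDHD1 and FTCD, stood at 0.51, 0.45, 0.57 and 0.43 in the authors' deposited table, each with an unadjusted p under 0.05 and adjusted p from 0.125 to 0.321. HAO1, AGXT, GRHPR and GLYCTK, peroxisomal and cytosolic enzymes of glyoxylate and glycerate, were also all positive. They ran from 0.22 to 0.58 in the authors' deposited table. Of them, 0 passed the adjusted threshold and 3 had an unadjusted p under 0.05. Among genes at or above the CHDH level, 68.2% were positive and 20.6% were higher at that p.

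Of the 3 genes that make serine, 1 was positive and 2 were negative. PHGDH had -0.01, PSAT1 0.25 and PSPH -0.78 in the authors' deposited table; the adjusted p were 0.977, 0.392 and 0.230. Of the mitochondrial folate genes, MTHFD1L had -0.47 and MTHFD2 -0.39 in the authors' deposited table, while the cytosolic MTHFD1 had 0.26 and ALDH1L1 0.23 there; the adjusted p of these 4 ran from 0.117 to 0.381. MTHFD1L and MTHFD2 averaged 1.51 and 1.32 log2 CPM, far below MTHFD1 at 8.69 in the authors' deposited table. SDS, which turns serine into pyruvate and marks periportal cells, had -0.73 (adjusted p = 0.351) in the authors' deposited table, the opposite sign to the periportal median of 0.51.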
